A study of Mus musculus with 30 samples.

Results

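Whole mesenteric fat of mice on normal chow was compared with adipocytes grown from mesenteric fat, to see which miRNAs of the tissue were also measured in the cultured cells. All samples titled as chow mesenteric fat (5) or as PBS-treated mesenteric adipocytes (4) were taken, 9 of the 30 samples of the series. All 566 mouse miRNA probes of the deposited hybridisation table were examined in them, as signal and as a share of each sample's summed mouse miRNA signal. The mice were C57BL6 males. For the tissue, they ate normal chow freely between 4 and 20 weeks of age, and the fat was frozen in liquid nitrogen. For the cultures, pre-adipocytes were taken from the stromal vascular cells that collagenase released from mesenteric fat, were differentiated, and received PBS for 24 h. The labels give chow as the feeding of their donors too, without a donor age, and state neither the medium nor the length of differentiation. They do not say that replicates came from separate animals or cultures, so p-values here measure the spread between these samples. Tissue and cell RNA were extracted with the same kit and brought to one concentration range. Sample descriptions carry the letter A for all fat and B for all cultures, so a batch behind that letter, if any, and the kind of sample cannot be told apart. A second comparison used fat of mice on a 60% fat diet between 4 and 20 weeks of age (5 samples). It was set against adipocytes given LPS at 1 µg/ml for 24 h (4 samples).

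A miRNA is a short RNA that guides an Argonaute protein to messenger RNAs and lowers their translation and stability. Its seed, the bases near the 5′ end, does most of the target recognition, so miRNAs with the same seed form a family. Fat tissue holds endothelium, mural cells, leukocytes, blood and stromal cells beside adipocytes, and several miRNAs are known to be made almost only in one of these lineages.

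The mature sequences below come from RefSeq (GRCm38.p6), 5′ to 3′, with the seed (bases 2 to 8) in capitals. Probe names without an arm were assigned to the main arm under its current name. Of 31 miRNAs looked up, 29 were kept. The others were missing under the name assigned or were left out by chromosome. The first set holds endothelial, leukocyte and red-cell miRNAs that were themselves below the detection limit in every culture.
miR-126-3p: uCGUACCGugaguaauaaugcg
miR-142-3p: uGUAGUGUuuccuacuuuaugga
miR-223: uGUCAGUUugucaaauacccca
miR-451: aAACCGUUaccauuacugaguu
miR-126-3p lies at chr2:26591402-26591423 on the plus strand and is known to be processed from an intron of Egfl7. miR-142-3p lies at chr11:87756903-87756925 (plus), miR-223 at chrX:96242884-96242905 (plus) and miR-451 at chr11:78073186-78073207 (plus). The next set took a larger share of the miRNA signal in culture.
miR-125b-5p: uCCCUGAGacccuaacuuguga
miR-22: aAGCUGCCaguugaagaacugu
miR-210: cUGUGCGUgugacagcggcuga
miR-132: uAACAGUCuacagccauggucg
miR-1983: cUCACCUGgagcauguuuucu
The table lists 2 copies of miR-125b-5p, at chr9:41581940-41581961 and chr16:77646279-77646300. miR-22 lies at chr11:75463772-75463793 (plus), miR-210 at chr7:141221407-141221428 (minus), miR-132 at chr11:75173723-75173744 (plus) and miR-1983 at chr13:21896930-21896950 (minus). The last set shows pairs that share a seed and differed in how far fat and culture were apart.
let-7a: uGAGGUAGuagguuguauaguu
let-7i: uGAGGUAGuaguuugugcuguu
miR-29a: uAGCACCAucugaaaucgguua
miR-29c: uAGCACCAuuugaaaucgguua
miR-16: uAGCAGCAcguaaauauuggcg
miR-195: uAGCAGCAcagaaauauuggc
miR-26a: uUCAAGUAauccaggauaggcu
miR-26b: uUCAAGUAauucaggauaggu
let-7a and let-7i differ at 4 of 22 positions, miR-29a and miR-29c at 1 of 22, and miR-16 and miR-195 at 2 of the 21 they share, none of them in the seed. How far a probe for one member of a pair also binds the other was not tested.

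The fat samples gave far more miRNA signal than the cultures. Summed over the 566 probes, fat held 270569 to 351783 and culture 70149 to 102148, 3.55-fold more in fat by the ratio of geometric means (two-sided exact permutation test, p = 0.0159, the smallest that 126 splits allow; adjusted over 8 sample-level measures, p = 0.0254). The detection limit was 29.8, set 2 SD over the mean of all 240 values of negative controls, and 142 to 160 miRNAs lay over it in fat against 83 to 100 in culture (same p). The positive ligation controls moved with this difference: their sum was 30559 to 37555 in fat and 13646 to 19915 in culture, 2.04-fold higher in fat without overlap, and their part in the result was not tested. The other positive controls overlapped (36356 to 51044 in fat, 42913 to 47589 in culture, exact permutation p = 0.444). Among the 4 mRNA probes, B2m, the light chain of MHC class I, was 7.62-fold higher in fat, while Actb (cytoskeletal actin) and Gapdh (a glycolytic enzyme) were 1.66-fold and 1.88-fold higher in culture (exact permutation test, adjusted p = 0.0212 for each). Rpl19, a ribosomal protein, did not pass (1.22-fold higher in fat, exact permutation p = 0.0952). It passed the same exact test without culture replicate 4 (log2 difference -0.39, p = 0.0357) and as a share of the 4 probes (-0.43, p = 0.0159). No probe measures an adipocyte messenger, so the adipocyte label could not be checked against defining mRNAs. In bulk samples such as these, fewer cells of a type and less RNA per cell cannot be told apart.

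**Figure D1:**
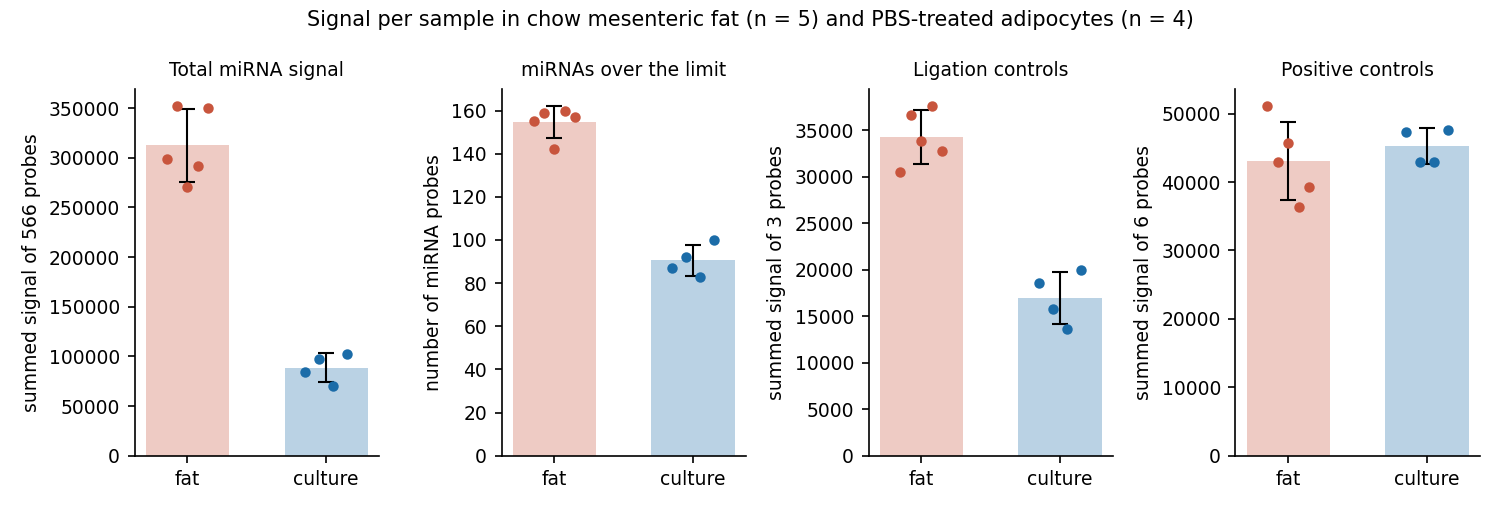
Each panel plots 1 value per sample for chow mesenteric fat (5 points) and PBS-treated adipocytes (4 points), as summed signal or number of probes, with bars at the mean and error bars of 1 SD. Total miRNA signal, miRNAs over the limit and ligation controls were higher in every fat sample than in every culture, while the positive controls overlapped.

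Within a kind of sample the profiles were alike. Pearson correlations of log2 signal over the 151 tested miRNAs were 0.926 to 0.976 between fat samples and 0.927 to 0.960 between cultures, and 0.553 to 0.628 between a fat sample and a culture. These are correlations across miRNAs, which are not independent replicates, and carry no test. Of the 566 miRNAs, 370 were below the limit in all 9 samples and 45 passed it in 1 to 3 of them. The other 151 passed it in at least 4 samples and were tested. 71 were over the limit in all 9 samples, 46 in every fat sample and no culture, and 2, miR-1983 and miR-2133, in every culture and no fat sample.

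As signal, 116 of the 151 miRNAs (76.8%) were lower in culture and 6 (3.97%) were higher (limma on log2(signal + 1), Benjamini-Hochberg adjusted p under 0.05). The groups did not overlap for 116 of the 151 (76.8%). Of the 116 lower, 50 had no culture over the limit, 15 had 1 to 3 and 51 had all 4. The 50 passed the filter through fat alone, and they are part of the 76.8% set beside the lists below. The median log2 difference, culture minus fat, was -2.77. As a share of each sample's total, which removes the difference in total signal, 76 of 151 (50.3%) were lower and 35 (23.2%) higher, the median was -0.94, and the groups did not overlap for 102 (67.5%). Each share difference equals the signal difference plus 1.83, the log2 ratio of the totals. All 76 miRNAs lower by share were also lower by signal, and all 6 higher by signal were also higher by share. Another 6 were lower by signal and higher by share, and 23 were called only by share, as higher. The limit of 29.8 stands for 0.0292 to 0.0425% of the total in culture and for 0.0085 to 0.011% in fat, so 43 of the 76 lower shares belong to miRNAs with no culture over the limit. With every value under the limit set to it, 48 shares were lower and 58 higher. Folds of miRNAs below the limit in one group are given as bounds, with those values set to the limit. The p-values beside such bounds come from the fit on the deposited values, not from the bounds. In the group below the limit they rest on the spread of values near the floor, which says little about differences between replicates.

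**Figure D2:**
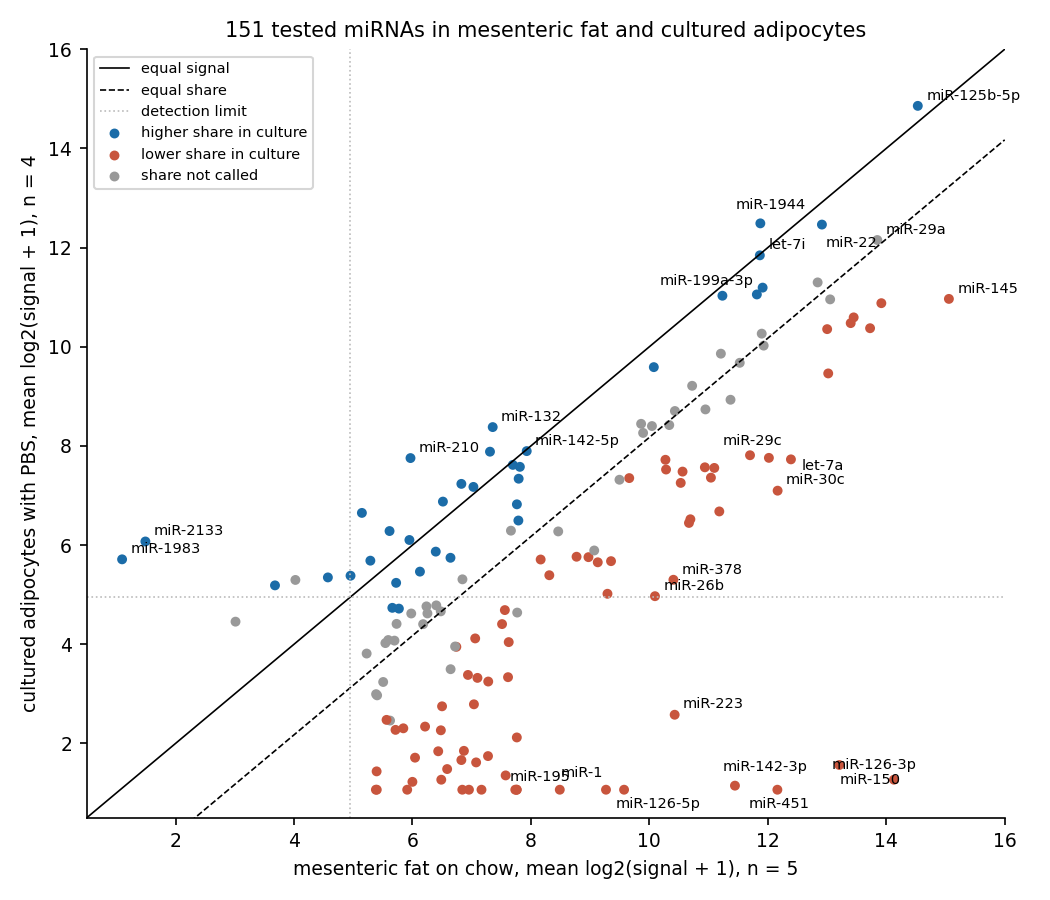
Mean log2(signal + 1) of the 151 tested miRNAs in chow mesenteric fat (x axis, n = 5) against PBS-treated adipocytes (y axis, n = 4), coloured by the call on shares. Points on the solid line have equal signal and points on the dashed line equal share; the row of points at the lower edge, which includes miR-150 and miR-451, was near the floor of 1 in culture.

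In both groups a few miRNAs made up most of the signal, and they were partly different ones. The brightest 10 miRNAs of each sample held 51.8 to 60.5% of the total in fat and 66.6 to 71.4% in culture (exact permutation test, adjusted p = 0.0254). Of the 12 miRNAs with the highest mean share in each group, 5 were in both lists. Shares of different probes also reflect how well each probe captures its miRNA. In fat miR-145 led with 11.9% ± 5.39 (SD, n = 5), followed by miR-125b-5p, miR-126-3p (5.78% ± 0.50), miR-16 and miR-720, a sequence now regarded as a tRNA fragment. In culture miR-125b-5p alone held 34.1% ± 4.53 (SD, n = 4), against 7.73% ± 1.45 in fat, followed by miR-1944, miR-22, miR-29a and let-7i.

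Both arms of miR-126, the endothelial miRNA hosted by the Egfl7 gene, were bright in fat and at the floor in culture. miR-126-3p read 15730, 21912, 16554, 15219 and 21349 in the 5 fat samples and 1.04, 1.26, 2.5 and 1.09 in the 4 cultures. Every fat sample was far over every culture, and no culture reached the limit. The fat level was at least 602-fold higher as signal and at least 170-fold higher as share (limma adjusted p = 2.19e-11 and 1.73e-09). miR-126-5p, from the other arm of the same hairpin, was 677 to 917 in fat and 1.00 to 1.26 in culture, at least 25.5-fold higher in fat (limma adjusted p = 2.91e-11).

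Of 9 leukocyte-linked miRNAs, 6 were tested and 5 were lower in culture on both scales, against 76.8% of all tested miRNAs by signal and 50.3% by share. miR-150, abundant in mature lymphocytes, read 14634, 18272, 9122, 11349 and 2732 in fat and between 1.09 and 5.35 in culture. The groups were far apart, at least 317-fold by signal and 89.4-fold by share (limma adjusted p = 2.19e-08 and 8.82e-07). miR-142-3p, made throughout the blood lineages, was 3608, 5416, 3267, 8758 and 300.4 in fat and 1.00 to 1.56 in culture, at least 93.5-fold higher in fat (limma adjusted p = 9.74e-07). miR-223, the myeloid member, was 1196 to 1595 in fat and 1.04 to 15.8 in culture, at least 46.2-fold apart. miR-342-3p and miR-146a stayed over the limit in culture, at 77.7 to 175 and 61.5 to 136, with log2 signal differences of -4.50 and -4.17. miR-155, miR-147 and miR-342-5p were below the limit in all 9 samples.

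miR-142-5p, the other arm of the miR-142 hairpin, did not move with miR-142-3p. It read 357.8, 177.5, 237.5, 216.2 and 258.7 in fat and 251.8, 227.4, 230.8 and 239.5 in culture. The groups overlapped, and the log2 signal difference was -0.03 (95% confidence interval -0.52 to 0.45, limma adjusted p = 0.885), while its share was higher in culture by 1.79. The same probe read 166 to 260 in exosomes of PBS-treated adipocytes, where the summed miRNA signal was only 1796 to 2861. What this probe captures there was not tested.

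The 3 red-cell miRNAs were at the floor in every culture. miR-451, the most abundant miRNA of red cells, read 2667, 5201, 3545, 5382 and 7622 in fat and 1.00 to 1.26 in culture, at least 154-fold higher in fat by signal and 43.3-fold by share (limma adjusted p = 3.61e-10 and 2.98e-09). miR-486 was 129 to 422 and miR-144, which is encoded beside miR-451 on chromosome 11, was 62.1 to 449 in fat, at least 7.24-fold and 4.12-fold over culture. By share the bounds were 2.04-fold and 1.16-fold, and the share call of miR-144 was lost when sub-limit values were raised to the limit (log2 -0.18, limma adjusted p = 0.770).

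Fat samples differed among themselves in these lineages. Replicate 5 had the lowest miR-150, miR-142-3p, miR-342-3p and miR-146a of the 5 fat samples and the highest miR-451, miR-486, miR-143 and miR-145. Other members of these lists did not follow. Red-cell miR-144 was highest in replicate 4, at 449 against 62.1 to 147 in the others, and leukocyte miR-142-5p was not lowest in replicate 5. Over the whole lists, leukocyte miRNAs summed to 6155 to 31959 in fat and 398 to 509 in culture, where miR-142-5p was the brightest member. The red-cell list summed to 2864 to 8144 in fat and 3.0 to 3.78 in culture, and the endothelial pair to 16007 to 22613 and 2.08 to 3.50. As shares of the total, the endothelial pair held 5.49 to 6.43% of fat signal and the leukocyte list 1.76 to 9.08%.

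**Figure D3:**
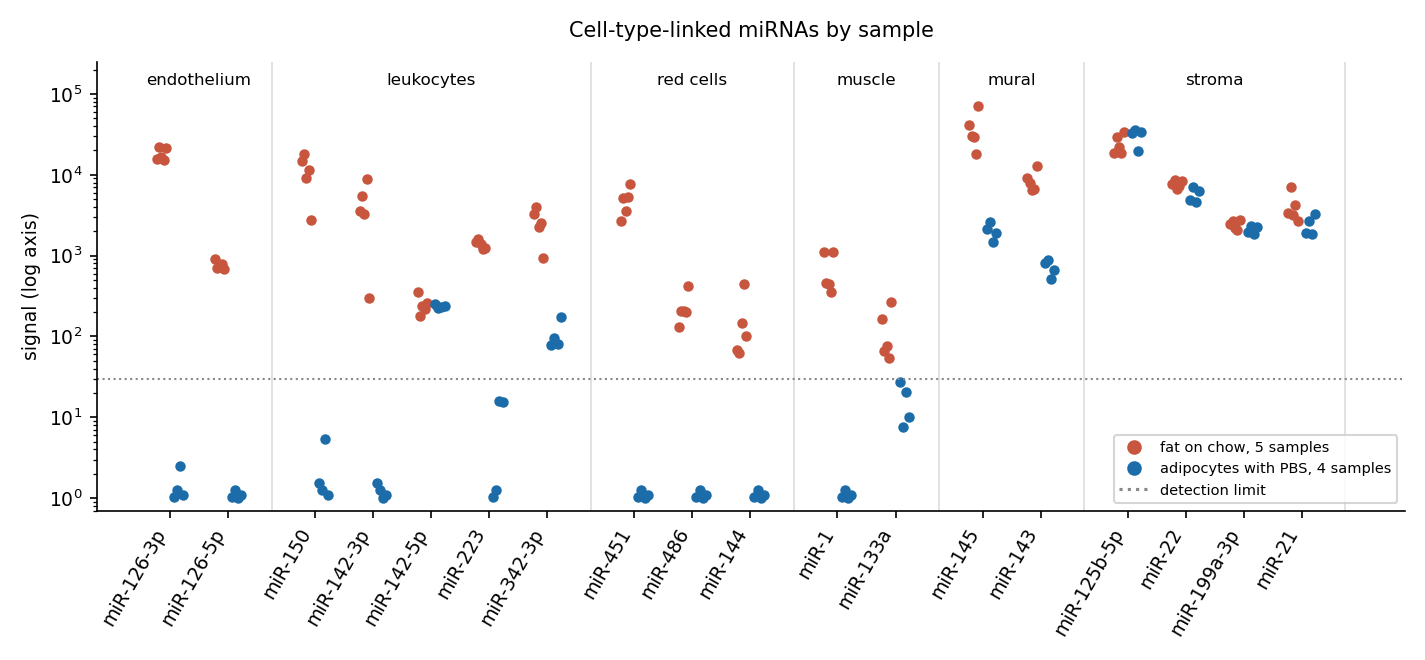
Signal of single miRNAs in each chow fat sample (5 points) and each PBS-treated culture (4 points) on a log axis, grouped by the cells they are linked to; the dotted line is the detection limit of 29.8. Endothelial and red-cell miRNAs and the leukocyte miRNAs miR-150, miR-142-3p and miR-223 were below the limit in every culture. Leukocyte miR-142-5p and miR-342-3p, and miR-146a, which is not drawn, were over it in every culture. Mural miRNAs were lower in culture but well over the limit. The 4 miRNAs drawn as stromal were picked and overlapped. Of these, miR-125b-5p is not on the mesenchymal list but on the list opposing adipocyte differentiation. Of the 14 tested on the mesenchymal list, 8 were lower by signal.

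miR-143 and miR-145, made in smooth muscle and pericytes, were lower in culture but remained bright there. miR-145 read 40752, 30178, 28977, 18266 and 70869 in fat and 2138, 2624, 1482 and 1918 in culture. The groups did not overlap, with log2 differences of -4.09 by signal and -2.27 by share (SE 0.366 and 0.320, limma adjusted p = 2.1e-06 and 0.000146). miR-143 was 6491 to 12852 in fat and 516 to 884 in culture, a log2 signal difference of -3.56. miR-1, the striated-muscle miRNA, was 355 to 1120 in fat and at most 1.26 in culture, at least 20.7-fold apart by signal and 5.82-fold by share. miR-133a, also of striated muscle, was 54.3 to 266 and 7.54 to 27.6. It was lower by signal (limma adjusted p = 0.00066) and not called by share (-0.94, adjusted p = 0.163). The other 5 miRNAs of the muscle list were below the limit in all 9 samples.

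Of 10 epithelial probes 7 were below the limit in every culture and 7 in every fat sample, and 3 were tested. miR-194 was 67.8 to 119 in fat and at most 2.5 in culture, and miR-203 was 139 to 253 and 18.7 to 32.7, both lower on both scales. miR-200b, which represses the ZEB transcription factors, was 195 to 320 in fat and 131 to 212 in culture and was not called by signal (log2 difference -0.45, limma adjusted p = 0.0856), while its share was higher in culture by 1.37 (adjusted p = 0.000521). None of the 5 liver and neuronal miRNAs was over the limit in a culture. In fat miR-122, miR-9 and miR-138 each passed it in 1 of the 5 samples, and the other 2 in none.

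miRNAs known to be raised in, or to promote, adipocyte differentiation were lower in culture than in fat. Of 21 on that list, 19 were tested, 18 were lower by signal, against 76.8% of all tested miRNAs, and 1, miR-210, was higher. Their median log2 signal difference was -4.22, against -2.77 over all 151. By share 16 were lower, against 50.3% of all, 1 was higher and 2 were not called, with a median of -2.39 against -0.94. Their summed signal was 19038 to 23163 in fat and 2216 to 3203 in culture, or 6.56 to 7.31% and 2.63 to 3.61% of the total. The miR-30 family, among the best known of this list, accounted for 2.66 to 3.05% in fat and 0.559 to 0.795% in culture, and its 5 members were lower on both scales.

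miR-30c read 4799, 4119, 4266, 4068 and 5966 in fat and 118, 141, 96.7 and 212 in culture. No values overlapped, and the log2 difference was -5.07 by signal and -3.24 by share (limma adjusted p = 2.5e-08 and 3.19e-07). miR-378, encoded within the Ppargc1b gene, read 1180, 1381, 1217, 1394 and 1661 in fat and 28.7, 37.7, 36.8 and 54.8 in culture. It was thus near the limit in culture, at a log2 signal difference of -5.11. miR-26b was 979 to 1181 in fat and 20.6 to 50.4 in culture (-5.12), and its family partner miR-26a was 106 to 202 and 1.00 to 1.26, at least 4.78-fold apart by signal and 1.35-fold by share. With sub-limit values raised to the limit, the share of miR-26a was not called (limma adjusted p = 0.0652).

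The other members of the list covered a wide range of differences. miR-193 was 125 to 234 in fat and at most 3.45 in culture, at least 6.36-fold apart. miR-103, linked to insulin sensitivity, was 1168 to 2100 and 127 to 186 (-3.28). miR-204 was 99.8 to 216 and 6.28 to 14.4 (at least 4.56-fold by signal), and its share call was lost in the same way (adjusted p = 0.147). miR-107 and miR-193b were called lower by share only on values far under the limit in culture: with those set to the limit their log2 share differences were 0.19 and 1.34. miR-148a was the one closest to the difference in totals, at 3615 to 4277 in fat and 778 to 1184 in culture, with a log2 share difference of -0.08 (limma adjusted p = 0.697).

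miR-210, which HIF raises in hypoxia, went the other way. It read 59.8, 66.8, 60.9, 46.7 and 77.9 in fat and 188, 211, 191 and 282 in culture. Every culture was over every fat sample, with a log2 difference of 1.79 by signal (SE 0.211) and 3.62 by share (SE 0.154; limma adjusted p = 1.69e-05 and 4.66e-08). Set against miR-378 in the same sample, the ratio of miR-210 to miR-378 was 5.15 to 6.56 in culture and 0.0335 to 0.0507 in fat.

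Of 13 miRNAs known to be lowered in, or to oppose, adipocyte differentiation, 6 were tested. By signal 4 were lower, a share near the 76.8% of all tested miRNAs, and none was higher. By share 3 were higher and none lower, against 23.2% and 50.3% of all. Their median log2 difference was -1.31 by signal and 0.52 by share, against -2.77 and -0.94 over all 151. Together they held 32.6 to 42.5% of the signal in culture and 8.99 to 12.8% in fat, most of it miR-125b-5p. miR-125b-5p, a homologue of the worm lin-4 miRNA, read 18459, 29414, 22205, 18475 and 33551 in fat and 32505, 35622, 19734 and 34065 in culture. These overlapped, the log2 signal difference being 0.33 (95% confidence interval -0.27 to 0.92, limma adjusted p = 0.272), and the share was higher in culture by 2.15 (SE 0.178, adjusted p = 4.42e-06). miR-125a-5p, which has the same seed, was lower by signal (-0.76, adjusted p = 0.0101) and higher by share (1.07, adjusted p = 0.000521). miR-27a, a repressor of PPARγ, was 2540 to 3652 in fat and 668 to 904 in culture, lower by signal (-1.85) and without a call by share (-0.02, adjusted p = 0.904).

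Several bright stromal miRNAs overlapped in signal between tissue and culture. Of 14 tested on the mesenchymal list, 8 were lower by signal, against 76.8% of all tested miRNAs, and none higher. By share 4 were higher, near the 23.2% of all, 3 were lower, against 50.3%, and 7 were not called. Their summed share was 19.6 to 22.6% in culture and 13.4 to 15.04% in fat. miR-199a-3p, abundant in fibroblasts, read 2427, 2694, 2216, 2046 and 2728 in fat and 1939, 2311, 1864 and 2280 in culture. The groups overlapped (log2 signal difference -0.20, 95% confidence interval -0.60 to 0.19, limma adjusted p = 0.288), and the share was higher in culture by 1.62 (adjusted p = 1.71e-06). miR-22 was 6740 to 8538 in fat and 4667 to 7057 in culture, and miR-21, a miRNA linked to fibrosis and stress, 2656 to 7058 and 1828 to 3256. Neither passed by signal (-0.45 and -0.72, adjusted p = 0.0514 and 0.0554), and both were higher by share (1.38 and 1.11). For miR-199a-3p, miR-22 and miR-21 the sign of the signal difference turned from negative to positive when samples were scaled to their median, quantiles, brightest 100 miRNAs or ligation controls. miR-1944, whose role is not established, was 1866 to 6518 in fat and 4826 to 7833 in culture, and its mean share was 1.30% in fat and 6.71% in culture (log2 2.44, adjusted p = 0.000175).

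Beside miR-210, other miRNAs of the 151 tested miRNAs were higher in culture as signal, and their values were low. miR-132, a CREB-induced miRNA, read 205, 209, 150, 125 and 142 in fat and 402, 388, 259 and 301 in culture, without overlap (log2 1.02, SE 0.232, limma adjusted p = 0.00195). miR-1983 was at 1.00 to 1.27 in every fat sample and read 36.0, 66.6, 56.7 and 51.5 in culture, at least 1.73-fold higher (limma adjusted p = 1.51e-08). miR-2133 was at most 3.64 in fat and 42.2, 50.2, 47.2 and 191 in culture, at least 2.22-fold higher. miR-2141 was 22.5 to 53.0 in fat and 50.6 to 173 in culture. It and miR-674 overlapped between the groups by a narrow margin, at log2 1.503 and 0.78 (adjusted p = 0.00346 and 0.0299). The call of miR-674 held in 11 of 21 alternatives run and was lost in the others (adjusted p up to 0.163). With the limit doubled only 2 miRNAs were called higher.

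Members of one seed family differed in how far fat and culture were apart. Of the 9 let-7 family members, regulators of developmental timing and growth, 8 were lower by signal, and by share 5 were lower, 1 was higher and 3 were not called. Of all tested miRNAs 76.8% were lower by signal and 50.3% by share, so the counts of lower members are near the background. let-7a read 5066, 6520, 4290, 4733 and 6653 in fat and 143, 241, 179 and 320 in culture. let-7i read 3633, 4678, 3148, 3498 and 3861 in fat and 3430, 3973, 3083 and 4339 in culture. The groups were apart for let-7a (log2 signal difference -4.66, limma adjusted p = 7.73e-08) and overlapped for let-7i (-0.02, 95% confidence interval -0.45 to 0.40, adjusted p = 0.911). Within a sample the ratio of let-7i to let-7a was 13.5 to 23.9 in culture and 0.58 to 0.739 in fat. A factor applied to a whole sample leaves this ratio unchanged, which quantile normalization need not. let-7c and let-7g lay between, at -2.92 and -2.86. Together the family held 13.1 to 15.2% of the total in culture and 15.9 to 17.6% in fat.

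The miR-29 family, known repressors of collagen genes, showed the same kind of split. All 3 members were lower by signal, but only miR-29c was lower by share. miR-29a read 15460, 17576, 12398, 13557 and 15296 in fat and 4120, 5081, 3651 and 5620 in culture, and miR-29c 4032, 4143, 3823, 4092 and 4699 in fat and 159, 224, 177 and 344 in culture. The log2 share differences were 0.13 for miR-29a and -2.43 for miR-29c (limma adjusted p = 0.318 and 1.71e-06). The ratio of miR-29a to miR-29c was 16.3 to 25.9 in culture and 3.24 to 4.24 in fat.

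All 6 members of the miR-15/16 family, which act on cell-cycle genes, were lower by signal and 5 were lower by share, against 76.8% and 50.3% of all tested miRNAs. miR-16 was 11951 to 24951 in fat and 1614 to 2223 in culture, a log2 signal difference of -3.04. miR-195 read 267 to 475 in fat and 1.00 to 1.26 in culture, at least 12.01-fold apart by signal and 3.39-fold by share. Within the miR-30 family the ratio of miR-30c to miR-30d was 0.69 to 0.862 in culture and 2.30 to 4.06 in fat. Within the miR-125 family the ratio of miR-125b-5p to miR-125a-5p was 10.5 to 16.2 and 5.10 to 8.04. No test was made of these ratios, which were chosen with the values known.

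**Figure D4:**
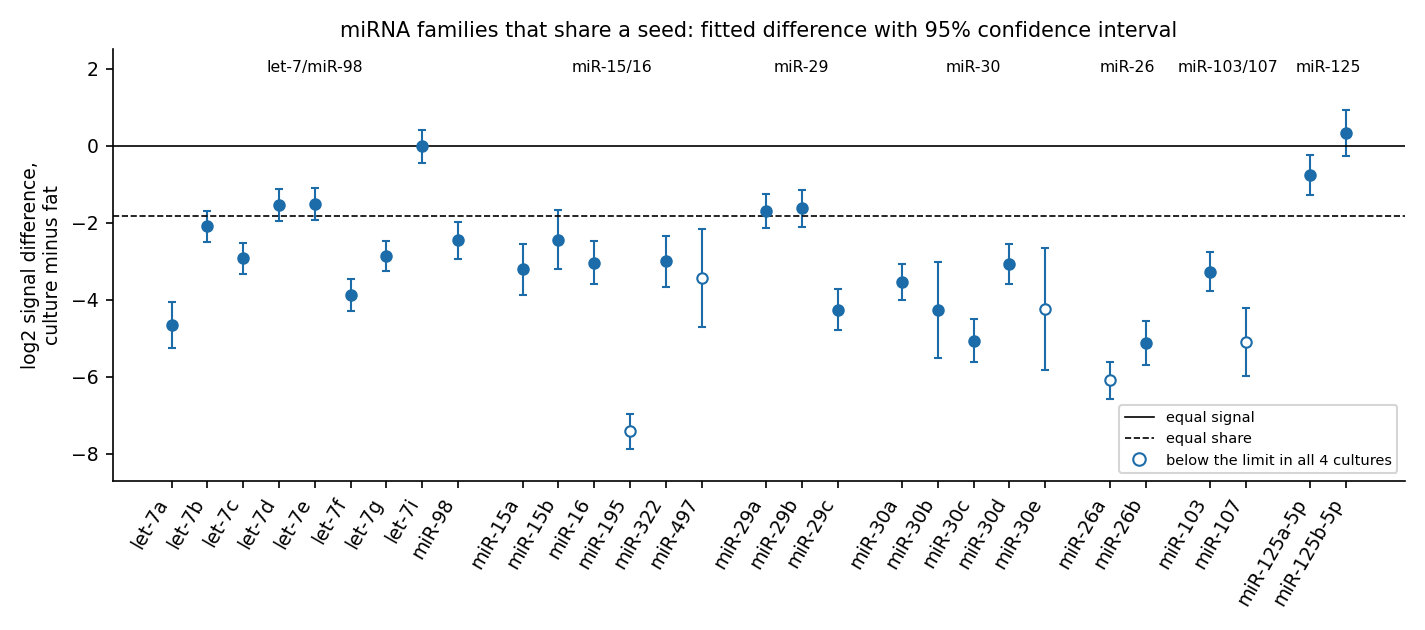
Fitted log2 signal difference, culture minus fat, with its 95% confidence interval for members of 7 seed families (4 cultures, 5 fat samples). The solid line marks equal signal and the dashed line equal share, 1.83 below it; open circles were below the limit in all 4 cultures, so their difference depends on values near the floor. let-7i and miR-125b-5p lay near equal signal, far above let-7a, miR-195 and miR-26a.

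The imprinted Dlk1-Dio3 region encodes a large miRNA cluster with roles in growth and stem cells. Of 38 of its miRNAs on the array 12 were tested. By signal 5 were lower, against 76.8% of all tested miRNAs, and none higher. By share 6 were higher, against 23.2% of all, 1 was lower, against 50.3%, and 5 were not called. Their summed share was 0.573 to 1.11% in culture and 0.248 to 0.411% in fat. miR-329 read 125, 129, 62.9, 91.0 and 195 in fat and 143, 181, 133 and 146 in culture, overlapping as signal and higher by share (log2 2.24). The other 5 higher by share were miR-369-3p, miR-376c, miR-382, miR-433 and miR-434-3p, and miR-127 was lower.

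The cultures were not uniform for some miRNAs of this cluster, nor for miR-196, which is encoded within the Hox clusters and marks body position. Culture 4 was the highest of the 4 cultures under both PBS and LPS for 4 of the 12 tested Dlk1-Dio3 miRNAs, and for 19 of the 151 tested miRNAs. Culture 4 was singled out after its values were seen. miR-376a read 4.69, 3.77, 17.7 and 397 in cultures 1 to 4, and 53.9 to 89.3 in fat. miR-196a read 90.2, 119, 103 and 1.09 in the same cultures, and 1.02 to 87.2 in fat. Culture 4 was thus far above the others for one and at the floor for the other. The LPS-treated culture with the same number showed the same pattern, at 287 for miR-376a and 1.42 for miR-196a. Over the 6 cultures numbered 1 to 3, PBS and LPS together, miR-376a was 3.77 to 22.1 and miR-196a 83.5 to 161. miR-196b and miR-1191 set culture 4 apart likewise, miR-196b being at the floor and miR-1191 at 202 and 183 against at most 1.26 in the other 6 cultures. With all cultures neither miR-376a nor miR-196a was called between fat and culture. Without culture 4, miR-376a was lower in culture by signal (log2 difference -3.18, limma adjusted p = 0.000114) and not called by share (-1.28, adjusted p = 0.0572). miR-196a was then higher in culture by share (4.59, adjusted p = 0.0130) and not called by signal (2.68, adjusted p = 0.0698). Without culture 4, 128 miRNAs were lower and 5 higher by signal.

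**Figure D5:**
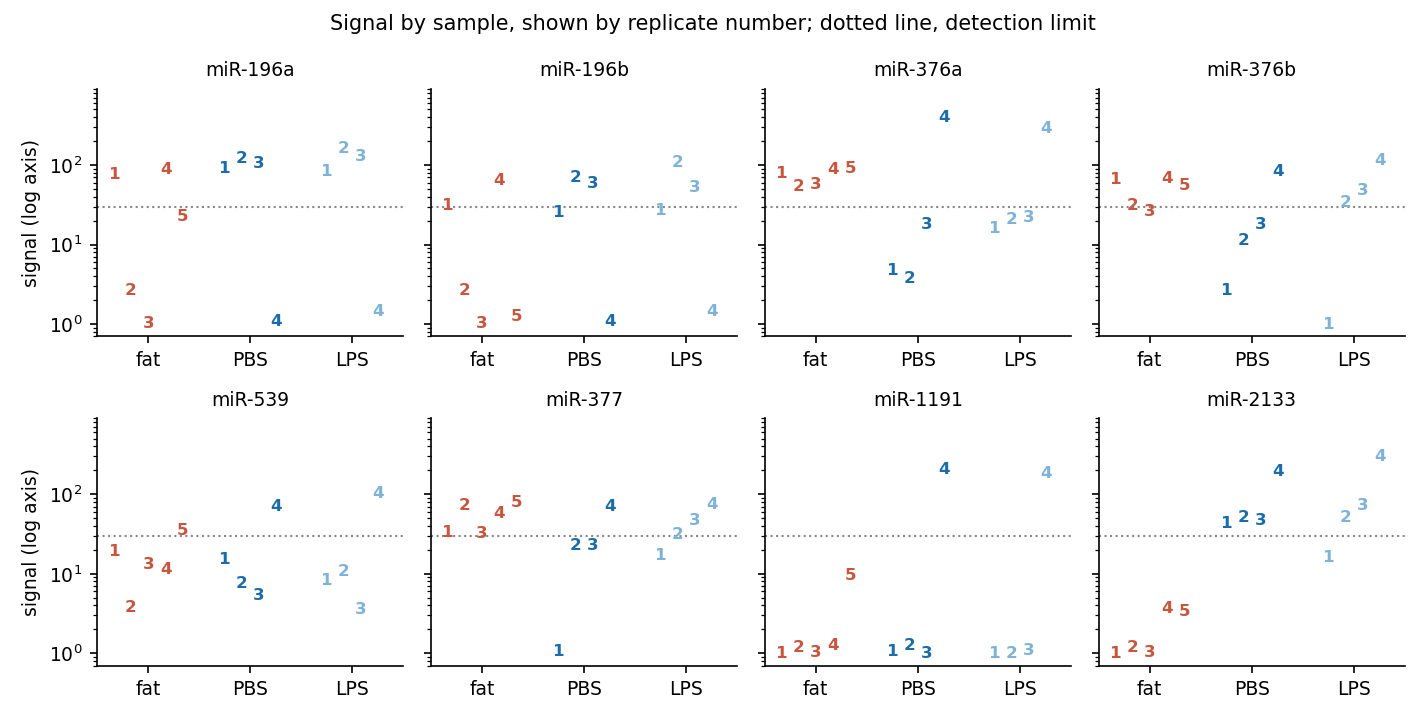
Signal on a log axis of 8 miRNAs in chow fat, PBS-treated and LPS-treated cultures, each sample drawn as its replicate number; the dotted line is the detection limit of 29.8. Number 4 was lowest of the cultures for miR-196a and miR-196b and highest of them for the other 6 miRNAs, under PBS and under LPS.

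The comparison was repeated in samples it did not use. Adipocytes given LPS (1 µg/ml for 24 h, n = 4) were set against fat of mice on a 60% fat diet (n = 5). That diet ran between 4 and 20 weeks of age. Diet and LPS differ from the first comparison, and the LPS cultures share numbers with the PBS cultures, so this describes how the calls look in other samples of the same kinds. Of 155 miRNAs tested, 124 (80.0%) were lower by signal and 4 (2.58%) higher; by share 67 (43.2%) were lower and 35 (22.6%) higher. Of the 116 lower by signal in the first comparison 109 were lower here too, 94.0% of the first list and 87.9% of the second. For shares, 29 of 35 higher (82.9% of each list) and 58 of 76 lower (76.3% and 86.6%) were called the same way, and none was called the opposite way on either scale. Endothelial miR-126-3p was 22265 to 33686 in this fat and 1.00 to 14.9 in the LPS cultures. let-7i again overlapped, at 4289 to 6938 and 3728 to 7556 (log2 signal difference -0.03, limma adjusted p = 0.925). Of the 6 higher by signal, miR-210, miR-1983 and miR-2141 were called again, miR-132 and miR-674 were not (0.48 and -0.06), and miR-2133 was not tested.

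The difference between culture and fat itself differed between the sets for a few miRNAs. It was tested in 1 fit over both sets and 173 miRNAs, and was more positive in the LPS and high-fat-diet set for 5 and more negative for 6 by signal (limma adjusted p under 0.05). That fit treats the PBS and LPS cultures as independent, although same-numbered ones deviated together; with their number as a block, 6 and 6 were called, among them all 11 called without it. miR-146a, which NF-κB induces, was 61.5 to 136 in PBS cultures and 426 to 1002 in LPS cultures, against 681 to 2534 in chow fat and 1196 to 3192 in high-fat-diet fat, and its difference moved by 2.80 (SE 0.570, adjusted p = 0.00383). miR-210 was 188 to 282 and 254 to 388 in the cultures and 46.7 to 77.9 and 14.9 to 47.8 in the fat, and its difference moved by 1.76 (SE 0.412, adjusted p = 0.0100).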

How the data were processed

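The authors deposited 1 table of 626 probes in 30 samples. Its values are signal of a hybridisation assay. The low values show that the authors subtracted a background and set a floor of 1. They also show that the miRNA values of each sample were multiplied by its own factor. This factor was 0.6025 to 2.398 and not different between fat and culture by an exact permutation test, p = 0.794. The largest negative control values, such as 58.25 and 30.25 in fat replicates 1 and 2, and the summed positive controls did not carry it. The limit of 29.8 thus comes from values without the factor and was applied to values with it. With the factor undone, the miRNA total was 3.45-fold higher in fat, and 6 miRNAs were higher and 116 lower by signal. Neither the software nor how background and factor were set is given in the sources used here. Since the deposited signal is background-subtracted, no count test was used, and counts behind a value are unknown. No 2 samples held identical values.

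Samples were grouped by title. Shares are the signal over the summed signal of the 566 mouse miRNA probes, 9 of which cover several miRNAs. miRNAs over the limit in at least 4 of the 9 samples were tested with limma (version 3.58.1, R 4.3.3; lmFit, then eBayes) on log2(signal + 1) of the deposited values, or on log2 of (signal + 1) over the total. P-values were Benjamini-Hochberg adjusted over the 151 miRNAs, with calls at 0.05. With a pseudocount of 1, differences of miRNAs under the limit rest on values near the floor. The log2 share difference of miR-26a was -4.27 with it and -1.39 with a pseudocount of 16. The pipeline was tested on simulated data. Single values per sample were compared by exact permutation tests, two-sided.

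The members and lists were chosen with earlier results of these data known. Named are up to 15 miRNAs a direction by size of difference on each scale, the 12 with the highest share in each group, members of the lineage and differentiation lists, up to 6 of each other list by mean signal, and the mRNA probes. Alternatives were other pseudocounts, limits, filters, scalings, denominators and sample sets, a replicate block, and each replicate left out. Same-numbered fat and culture samples deviated together in only 1 of 4 pairs (correlations -0.231 to 0.248), so the numbers were not taken as pairs. Same-numbered PBS and LPS cultures did deviate together (0.413 to 0.696), against -0.615 to 0.411 for cultures with unlike numbers.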

Additional observations from a re-analysis of the deposited data

Results flagged for a closer look

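In 101 groups of 4 or 5 samples examined for a value far from the rest, 8 were found, and chance alone gives about 1 in 20. The groups include miRNAs picked with earlier results of these data known, so this rate is no yardstick for the 8. In fat, replicate 5 had a miR-486 signal of 421.79 against 129 to 207 in the others. Replicate 4 had a miR-144 signal of 449.09 against 62.1 to 147, and replicate 2 a miR-16 signal of 24950.91 against 11951 to 15625 and a miR-193b signal of 24.78 against 43.8 to 50.9. Replicate 3 had 142 miRNAs over the limit against 155 to 160. In culture, all 3 such values were in replicate 4: miR-2133 at 191.4 against 42.2 to 50.2, miR-376a at 396.88 against 3.77 to 17.7, and miR-1191 at 202.33 against 1.00 to 1.26. These 3 are among the miRNAs picked after the values of culture 4 were seen, so they add no separate support for setting it apart.

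The difference between culture and fat was not the same in the LPS and high-fat-diet set as in the PBS and chow set for 4 of the named miRNAs by signal and 6 by share, in the limma fit over both sets. By signal it was higher in the LPS and high-fat-diet set for miR-146a (by 2.796 on the log2 scale, limma adjusted p = 0.00383), miR-193 (3.48, adjusted p = 0.00363) and miR-210 (1.755, adjusted p = 0.0100), and lower for miR-1983 (-2.344, adjusted p = 0.0304). By share the same 4 moved by 2.832, 3.516, 1.791 and -2.309 (adjusted p = 0.00515, 0.00212, 0.00245 and 0.0250). By share miR-26b moved by 1.164 and miR-27a by -0.809 (adjusted p = 0.0260 and 0.0401). With the number of the cultures as a block, miR-27a was no longer called (adjusted p = 0.0518) and the other 9 differences were. miR-193 and miR-1983 rest on values at or below the limit: miR-193 was at most 3.45 in PBS cultures and 7.92 to 19.2 in LPS cultures, and miR-1983 was at most 1.27 in chow fat and 3.16 to 26.1 in high-fat-diet fat. The differences of miR-210 and miR-26b rest on such values in part. miR-210 was over the limit in 2 of 5 high-fat-diet fat samples, and miR-26b in 2 of 4 PBS cultures.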

How the results depend on the processing

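The scaling decides how many miRNAs are called higher. By signal, 6 were higher and 116 lower; centring on the median gave 42 and 71, quantile normalization 52 and 63, scaling to the brightest 100 miRNAs 58 and 53, and scaling to the ligation controls, chosen after seeing the data, 24 and 97. With no filter 11 were higher and 140 lower, and with the limit doubled 2 and 98. Leaving out each replicate in turn gave 5 to 7 higher and 111 to 128 lower. By share, 35 were higher and 76 lower. With no filter 369 were higher and 86 lower, since probes at the floor take a larger share of a smaller total. With the limit put in place of every lower value, also chosen after seeing the data, 58 were higher and 48 lower, and with a pseudocount of 16, 50 and 56. Leaving out each replicate gave 33 to 37 higher and 72 to 78 lower. With same-numbered cultures as a block, chosen after seeing the data, the difference between the 2 sets was called by share for 6 miRNAs in each direction (7 and 8 without it). In the LPS and high-fat-diet set a doubled limit left 2 higher and 111 lower by signal.

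The replicate numbers did not pair fat with culture; with the replicate block 8 were higher and 119 lower by signal, 35 and 75 by share, and the sign of miR-27a by share turned (0.011).

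The sign of 11 named signal differences near 0 or near the difference in totals turned under a scaling. Under median centring, quantile normalization and brightest-100 scaling the log2 differences were 2.04, 2.58 and 2.55 for miR-142-5p, 0.16, 0.29 and 0.68 for miR-148a, 1.31, 1.71 and 1.83 for miR-125a-5p, 0.22, 0.61 and 0.74 for miR-27a, 1.87, 2.36 and 2.38 for miR-199a-3p, 1.59, 2.06 and 2.10 for miR-199a-5p, 1.35, 1.69 and 1.87 for miR-21, 1.62, 1.504 and 2.14 for miR-22, 0.38, 0.34 and 0.89 for miR-29a, 0.30, 0.24 and 0.81 for miR-376a, and 2.05, 2.22 and 2.56 for let-7i. Scaled to ligation controls they were 0.99 for miR-142-5p, 0.27 for miR-125a-5p, 0.82 for miR-199a-3p, 0.54 for miR-199a-5p, 0.31 for miR-21, 0.58 for miR-22 and 1.00 for let-7i. With the authors' factor undone, miR-142-5p was at 0.0067 and let-7i at 0.019; let-7i was also above 0 without culture replicate 1 (0.011), culture replicate 3 (0.0625) or fat replicate 2 (0.060), and miR-142-5p without fat replicate 1 (0.11); over all replicates left out they ranged down to -0.10 and -0.15.

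By share, the calls of miR-144 (log2 -0.18), miR-26a (-0.39) and miR-204 (-0.33) were lost with sub-limit values raised to the limit, and that of miR-144 with a pseudocount of 16 (-1.23). By signal, miR-674 was called in 11 of 21 alternatives. By share, the sign of miR-193b turned with a pseudocount of 16 (0.088) and, with values set to the limit, so did miR-193b (1.34), miR-107 (0.19) and miR-133a (0.052). miR-27a turned without culture replicate 1 (0.056) or 4 (0.017), without fat replicate 1 (0.013) or 5 (0.011) and with a denominator lacking the 10 brightest (0.034), and miR-148a without culture replicate 1 (0.040), their lowest values with a replicate left out being -0.14 and -0.24. miR-376a turned without culture replicate 4 (-1.28) or fat replicate 2 (-0.092), and with denominators lacking miR-143 and miR-145 (-0.13) or red-cell and leukocyte miRNAs (-0.071); the first of these also turned miR-29a (-0.054). Rpl19 passed its test without culture replicate 4 (-0.39; -0.15 to -0.39 with any replicate left out) and as a share of the mRNA probes (-0.43). Of 54 named miRNAs, 33 by signal and 40 by share kept their direction and call under all alternatives run; the causes of the other changes were not tested.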

Other observations

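Beside the groups described, the 7 tested miRNAs of the miR-17-92 cluster and its paralogues, linked to proliferation, were all lower in culture by signal and 3 were lower by share, against 76.8% and 50.3% of all tested miRNAs, with summed shares of 1.08 to 1.5% in culture and 0.837 to 1.64% in fat. The 5 miRNAs of the miR-23/27/24 clusters were all lower by signal and 2 were lower by share, the latter near the 50.3% of all, with summed shares of 2.596 to 2.94% in culture and 3.71 to 4.84% in fat. The 2 tested members of the miR-181 family were lower by signal, miR-181a at 1347 to 1982 in fat and 78.7 to 93.0 in culture (log2 signal difference -4.22). Of 9 miRNAs linked to NF-κB and stress, 4 were tested: miR-132 was higher by signal, miR-146a and miR-146b were lower, and miR-21 was not called; over all tested miRNAs 3.97% were higher and 76.8% lower. By share 2 of the 4 were higher, 1 was lower and 1 was not called, against 23.2% higher and 50.3% lower. In the Sfmbt2 intronic cluster 2 miRNAs were tested and neither was called by signal, miR-466g being at 163 to 283 in fat and 156 to 246 in culture. miR-139-5p was below the limit in all 4 cultures and at 171 to 309 in fat, at least 7.24-fold apart by signal and 2.04-fold by share. miR-1902 was likewise at the floor in culture and at 116 to 279 in fat.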
